A study of Mus musculus with 2 samples.

Results

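The MHC class I peptide loading genes described here are *Nlrc5*, *Psmb8*, *Psmb9*, *Psme1*, *Psme2*, *Tap1*, *Tap2*, *Tapbp*, *Erap1* and *B2m*. They were chosen by name, and all 10 were found among the 27031 gene columns of the count table. As background, class I molecules on the cell surface show CD8 T cells short peptides cut from proteins inside the cell. The immunoproteasome cuts those peptides, the TAP transporter carries them into the endoplasmic reticulum, a peptidase trims them there, and tapasin holds the empty class I molecule until a peptide fits. Interferon gamma and the transactivator NLRC5 raise the transcription of many genes of this pathway, and dendritic cells use it to show tumor antigens to T cells.

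The cells came from MC38 colorectal carcinomas grown under the skin of female C57BL/6 mice aged 6 to 8 weeks. Control mice were given vehicle, and telmisartan mice were given telmisartan, a blocker of the angiotensin II receptor AT1, at 5 mg/kg by gavage every day from implantation until the tumors were taken on day 13. Sorted CD45-positive cells of 5 mice made up each group's pool, control cells carried Sample Tag 1 and telmisartan cells Sample Tag 2, and both pools went through 1 BD Rhapsody capture. The comparison of the pools asks whether the genes that supply class I molecules with peptide differ with the drug, and in which cells. Each group was 1 pool, so there are no replicates: intervals below cover counting error only, pool and treatment cannot be told apart, and no test was made.

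The gene table and the tag table held the same 20726 cell barcodes. Of the cells given to a tag, 5078 of 8738 control cells (58.1%) and 4833 of 10222 telmisartan cells (47.3%) lay within the limits on genes and mitochondrial share, and after removal of doublets 4537 control and 4432 telmisartan cells were kept. They held 41747996 and 31015766 unique molecular identifiers (UMIs, counted RNA molecules), with medians of 8732 and 6368.5 UMIs per cell. *Ptprc*, which encodes CD45, was found in 85.6% of the control and 76.0% of the telmisartan cells. Of 5 epithelial or tumor markers, *Cdh1* held 2575 of 2747 UMIs in the control and 1402 of 1463 in the telmisartan pool, where *Krt8* was at 0. Levels below are UMIs per 1000000 UMIs of the same cells and pool (CPM), and ratios are telmisartan over control on the log2 scale with a 95% counting interval.

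Fixed markers gave 4049 control and 3997 telmisartan macrophage-like cells, 369 and 298 dendritic-like cells, 73 and 113 T-like cells, and 46 and 24 neutrophil-like cells. Macrophage-like cells fell into 6 states, found without the 10 genes and their pathway lists among the variable genes. State 1 was led by *Dcstamp*, *Cxcl3* and *Slpi* and held 809 control and 1227 telmisartan cells. State 2, led by the type I interferon response genes *Ifit3*, *Rsad2* and *Ifit2*, held 702 and 1230 cells and was the shallowest state, with medians of 2630.5 and 2648.5 UMIs per cell. State 3, led by the interferon gamma response genes *Serpina3g*, *Cxcl9* and *Gbp2*, held 1275 and 339 cells, so that 79.0% of it came from the control pool. State 4, led by *Gas6*, *Folr2*, *Cbr2* and *Apoe*, held 656 and 754 cells. State 5 was led by the mitotic genes *Ccna2* and *Top2a* and held 373 and 336 cells, and state 6 was led by the DNA replication genes *Mcm2* and *Cdc6* and held 234 and 111 cells. The dendritic-like cells fell into 3 subsets. Subset 1, with 258 control and 214 telmisartan cells, passed no subset's fixed markers and was led by *Sirpb1c*, *Galnt3* and *Slc4a11*. Subset 2, with 60 and 46 cells, passed 5 of 5 mature markers such as *Fscn1* and is called mature-like. Subset 3, with 51 and 38 cells, passed 5 of 5 cDC1 markers such as *Xcr1* and is called cDC1-like. Most of its leading genes were cell cycle genes, however, such as *Pbk*, *Ccna2*, *Kif11*, *Top2a* and *Nusap1*.

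In macrophage-like cells, the trimming peptidase gene *Erap1* and the proteasome activator gene *Psme2* were lower in the telmisartan pool, and the other 8 genes lay between -0.22 for *Psmb9* and 0.12 for *B2m*. A gene is called higher or lower here when its ratio is at least 1.2 in size, its interval leaves out no difference, and it has at least 100 UMIs in both pools together. By that rule 2 of the 10 genes were called lower, where 15.4% of 11075 genes were, and 0 were called higher, where 13.5% of them were. For 10 genes those counts are near the background and are no result about them, and the median over the 10 genes was -0.03, where the median over all genes was -0.05. The ratios are relative to the total UMIs of each pool. Without that scaling the median over all genes in macrophage-like cells moved from -0.05 to -0.46 and that over the 10 genes to -0.44, all 10 ratios were negative, and the directions of *Tapbp* and *B2m* turned.

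The pools were not spread alike over the macrophage states, and ratios changed when both pools were weighted to the same states. The *Erap1* ratio was then -0.51 (-0.62 to -0.40) and was still called. The *Psme2* ratio was -0.08 (-0.16 to -0.01) and was no longer called, and without state 3 it was -0.17. *B2m* (0.16), *Tapbp* (0.16), *Psmb8* (0.13) and *Tap1* (0.12) then had ratios above 0 with intervals that left out 0, each of a size under the limit of 1.2. The median over the 10 genes was 0.03 with these weights. Within states the picture was mixed: *Erap1* was below 0 in 6 of 6 states, *B2m* was above 0 in 6 of 6, and the other 8 genes were above 0 in some states and below it in others. These signs rest on the scaling: as UMIs per cell without it, an alternative within states that was chosen after seeing the data, *B2m* was above 0 in state 2 (0.12) and below 0 in the other 5 states, and 0 of the 10 genes were called higher in any state. *Erap1* was then called lower in 6 of 6 states.

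**Figure D1:**
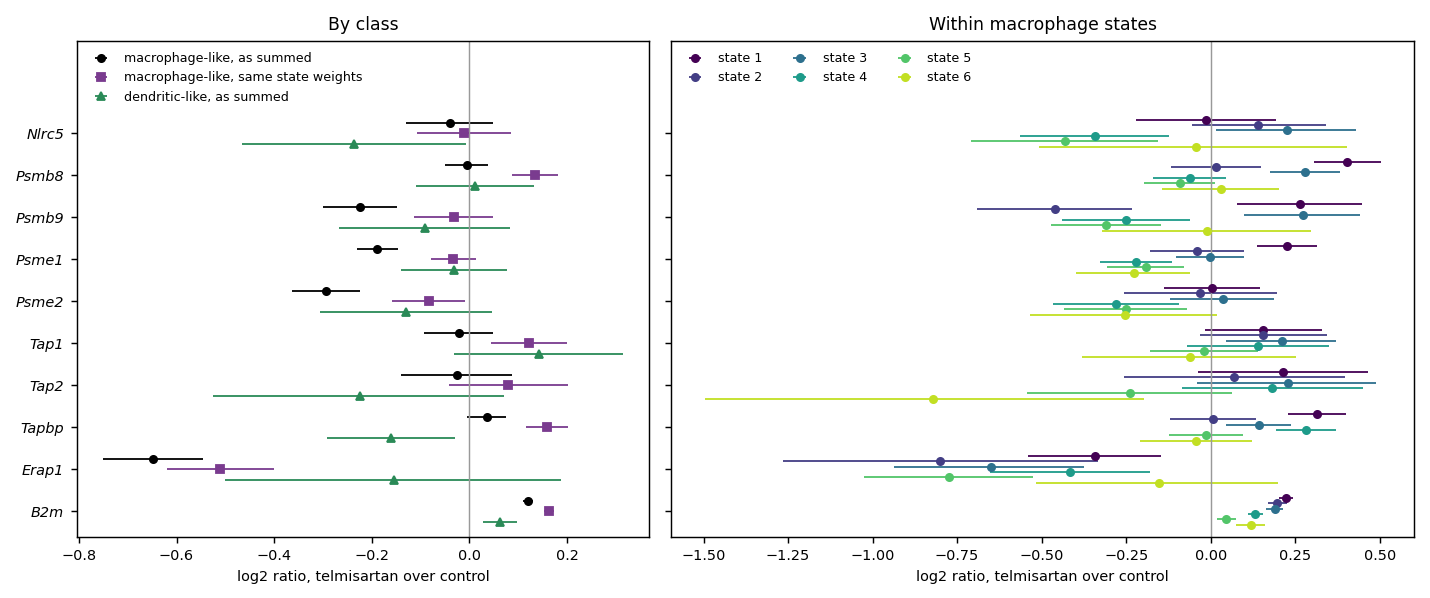
Log2 ratio of telmisartan over control for the 10 genes, with 95% counting intervals as bars: at left for macrophage-like cells as summed and weighted to the same states and for dendritic-like cells, at right within each of the 6 macrophage states. *Erap1* lies below 0 in each of the 6 states, with a lowest ratio of -0.80 in state 2, and *B2m* above 0, with a highest of 0.22 in state 1; without scaling to total UMIs the *B2m* ratio over the class is -0.29.

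*Nlrc5*, which encodes the transactivator of class I genes, had the widest range over the macrophage states when both pools were summed, although *Psmb9* had a wider one in the control and *Erap1* in the telmisartan pool alone. Its level ran from 42.2 CPM in state 1 to 136 CPM in state 2, a 3.22-fold range over both pools, with 80.4 CPM in state 3 and between 44.1 and 55.4 CPM in states 4, 5 and 6. Its levels in macrophage-like cells as a whole were 64.7 CPM in the control and 62.9 CPM in the telmisartan pool, a ratio of -0.04 (-0.13 to 0.05). That near equality depended on how cells were weighted: the ratio was 0.30, and called higher, when every cell was thinned to 1000 UMIs, which gives shallow cells the same weight as deep ones. It was 0.16 as a mean of UMIs per 10000 in each cell, and -0.29, and called lower, without the shallow state 2. Within states the gene was called lower in state 4, from 61.8 to 48.7 CPM (-0.34), and in state 5, from 56.3 to 41.7 CPM (-0.43). In states 2 and 3 the ratios were 0.14 and 0.22 and were not called.

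Among dendritic-like cells *Nlrc5* was highest in the mature-like subset 2, at 294 CPM over both pools, with 116 CPM in subset 1 and 93.8 CPM in the cDC1-like subset 3. In dendritic-like cells as a whole it was at 142 CPM in the control and 120.4 CPM in the telmisartan pool (-0.24, -0.47 to -0.01), not called. The cDC1-like subset had 66 control and 23 telmisartan UMIs, 129 and 52.7 CPM, a ratio of -1.29 (-2.04 to -0.59). That ratio was the most negative of any gene of the 10 in a dendritic subset, but its 89 UMIs are under the minimum of 100, so it was not called.

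*Psmb8* and *Psmb9* encode catalytic subunits of the immunoproteasome, which take the places of those of *Psmb5* and *Psmb6* in the constitutive proteasome. Both were lowest in state 1 and highest in the mitotic state 5 over both pools. *Psmb8* ran from 189 to 322 CPM (1.71-fold) and *Psmb9* from 53.7 to 138 CPM (2.56-fold). The *Psmb8* interval of state 5 overlapped that of state 3, at 310 CPM. In the telmisartan pool alone the highest state for both was state 3 instead, at 362 CPM for *Psmb8* and 132 CPM for *Psmb9*, so the order of states 3 and 5 differed between the pools. For *Psmb9* the telmisartan intervals of these states overlapped, so their order there is not resolved. Dendritic-like cells had higher levels of the same genes than any macrophage state, at 452 CPM for *Psmb8* and 222 CPM for *Psmb9*, and the cDC1-like subset was the highest of the subsets for both, at 534 and 308 CPM, with intervals that overlapped those of the mature-like subset.

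Between the pools, *Psmb8* in macrophage-like cells was at 258 CPM in the control and 257 CPM in the telmisartan pool (-0.01, -0.05 to 0.04). This equality over the class held different values within states. In state 1 *Psmb8* was called higher, from 161 to 213 CPM (0.40, 0.30 to 0.50), and in state 3 from 298 to 362 CPM (0.28, 0.18 to 0.38). Both calls rest on the scaling, since without it the ratios were 0.00 and 0.03. In the other 4 states its ratios lay between -0.09 and 0.03. *Psmb9* was at 95.2 CPM in the control and 81.5 CPM in the telmisartan pool (-0.22, -0.30 to -0.15), under the limit for a call, and that ratio was 0.03 with cells thinned to 1000 UMIs and -0.03 with both pools weighted to the same states. *Psmb9* was called higher in state 3, from 109 to 132 CPM (0.27, and 0.02 without scaling, not called), and lower in state 2, from 113 to 82.3 CPM (-0.46), and in state 5, from 150.4 to 121 CPM (-0.31). In dendritic-like cells neither gene was called: *Psmb8* was at 451 and 454 CPM and *Psmb9* at 228 and 214 CPM.

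Read beside the levels, the ratio of UMIs of *Psmb8*, *Psmb9* and *Psmb10* to those of *Psmb5*, *Psmb6* and *Psmb7*, the subunits they replace, does not depend on scaling to total UMIs. Over both pools it was 1.197 in state 1 and 1.24 in state 4, with overlapping intervals, 1.44 in state 6, 1.54 in state 5, 1.79 in state 3 and 1.83 in state 2. The summed ratio was thus highest in the states led by interferon response genes, with overlapping intervals of 1.73 to 1.86 in state 3 and 1.73 to 1.93 in state 2. The single pairs did not all follow it: *Psmb8* over *Psmb5* was 4.91 in state 5, 4.89 in state 3 and 4.67 in state 2, with overlapping intervals, and *Psmb9* over *Psmb6* 1.43, 1.40 and 1.32. *Psmb10* over *Psmb7* was 0.567 in state 5, 0.860 in state 3 and 0.844 in state 2. Dendritic subsets were higher still, at 2.69 in subset 1, 3.10 in the cDC1-like and 3.29 in the mature-like subset, but the intervals of all 3 subsets overlapped, so their order is not resolved. Their *Psmb10* over *Psmb7* was not higher than in states 2 and 3, at 0.756, 0.615 and 0.688 in subsets 1, 2 and 3. In macrophage-like cells as a whole the ratio was 1.498 in the control and 1.44 in the telmisartan pool (log2 ratio -0.06, -0.11 to -0.01), and in dendritic-like cells it was 2.85 and 2.84. Within states it was higher in the telmisartan pool in state 1, 1.28 against 1.09 (0.24, 0.13 to 0.34), and in state 3, 2.01 against 1.74 (0.21, 0.08 to 0.34), and lower in state 5, 1.43 against 1.64 (-0.20, -0.32 to -0.08). States 2, 4 and 6 had intervals that held 0.

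**Figure D2:**
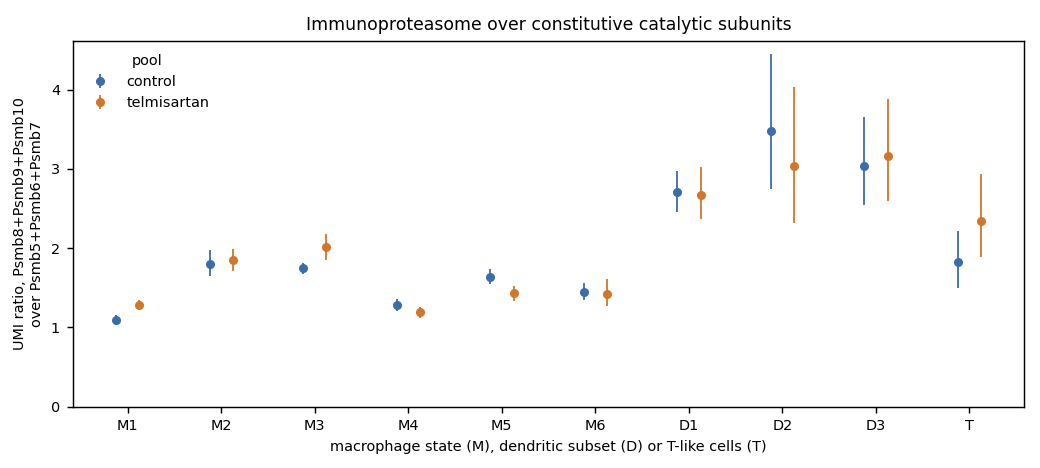
Ratio of UMIs of *Psmb8*, *Psmb9* and *Psmb10* to UMIs of *Psmb5*, *Psmb6* and *Psmb7* in each macrophage state (M1 to M6), dendritic subset (D1 to D3) and T-like cells (T), by pool, with 95% intervals as bars. Over both pools the ratio is 1.197 in state 1, 1.83 in state 2 and 3.29 in the mature-like subset 2.

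*Psme1* and *Psme2* encode the subunits of PA28, an activator ring that docks on the proteasome and changes the peptides it releases. Both had their highest macrophage level in state 3 and their lowest in state 4: over both pools *Psme1* ran from 232 to 367 CPM (1.58-fold) and *Psme2* from 76.4 to 156 CPM (2.04-fold). The *Psme1* level of state 1 over both pools, 233 CPM, did not differ from that of state 4 beyond counting error. Within the pools these states did differ, in opposite order. State 1 had 213.6 CPM and state 4 had 249.5 CPM in the control, and 249.7 and 214.0 CPM in the telmisartan pool. In dendritic-like cells the mature-like subset stood out for both genes. It had 882 CPM of *Psme1*, where subsets 1 and 3 had 506 and 562 CPM. It had 529.9 CPM of *Psme2*, where they had 182 and 168 CPM.

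Between the pools, *Psme2* in macrophage-like cells was at 118 CPM in the control (114 to 121) and 95.9 CPM in the telmisartan pool (92.3 to 99.6), a ratio of -0.29 (-0.36 to -0.23). At equal depth of 1000 UMIs per cell, 11.4% of control and 8.53% of telmisartan macrophage-like cells held a *Psme2* UMI. Within states it was called lower in state 4, from 83.6 to 68.9 CPM (-0.28), while in states 1, 2 and 3 its ratios lay between -0.03 and 0.04, and states 5 (-0.25, -0.43 to -0.07) and 6 (-0.25, -0.53 to 0.02) were not called. *Psme1* was at 294 CPM in the control and 258 CPM in the telmisartan pool (-0.19, -0.23 to -0.15), not called, and its ratio was 0.23 in state 1 and between -0.23 and -0.00 in the other 5 states. In the dendritic subsets *Psme2* differed in direction. It was called lower in subset 1, from 207 to 146 CPM (-0.50, -0.75 to -0.26), and higher in the mature-like subset, from 476 to 612 CPM (0.36, 0.04 to 0.69), a ratio that was 0.14 and not called without scaling. In the cDC1-like subset it was at 145 and 195 CPM (0.43, -0.04 to 0.90) with 74 and 85 UMIs, not called, but 0.62 and called higher without scaling. Over dendritic-like cells it was at 229 and 209 CPM (-0.13). *Psme2b*, a near copy of *Psme2* on another chromosome, had 897 control and 537 telmisartan UMIs in macrophage-like cells (-0.31), and reads of the copies may be given to either gene, so these *Psme2* levels are uncertain by that amount.

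*Tap1* and *Tap2* encode the subunits of the transporter that moves peptides into the endoplasmic reticulum. Both were highest in state 2 over both pools, *Tap1* at 149.7 CPM and *Tap2* at 50.1 CPM, but these orders are not all resolved. The *Tap1* interval of state 5, at 138.8 CPM, overlapped that of state 2, and in the control pool these states had 139.6 and 139.8 CPM. *Tap2* in state 3, at 49.8 CPM, did not differ from state 2 beyond counting error and was the highest in the telmisartan pool alone. The lowest states were state 4 for *Tap1*, at 60.02 CPM (2.49-fold), with state 1 close to it at 61.1 CPM, and state 1 for *Tap2*, at 29.4 CPM (1.71-fold), not beyond counting error below state 6 at 29.9 CPM. In the telmisartan pool alone the lowest *Tap2* state was state 6, at 19.3 CPM, with a 2.92-fold range where the control had 1.80-fold. In dendritic-like cells the cDC1-like subset had the highest levels of both, 274 CPM of *Tap1* and 101 CPM of *Tap2*, but both intervals overlapped those of the mature-like subset, at 231 and 92.4 CPM. Between the pools neither gene was called in macrophage-like cells, with *Tap1* at 98.6 and 97.1 CPM (-0.02) and *Tap2* at 39.3 and 38.6 CPM (-0.03). *Tap1* ratios were above 0 in states 1 to 4, between 0.14 and 0.21. *Tap2* was called lower in state 6, from 34.2 to 19.3 CPM (-0.82, -1.50 to -0.20), which rests on 113 control and 26 telmisartan UMIs. In dendritic-like cells *Tap1* was at 212 and 234 CPM (0.14) and *Tap2* at 84.5 and 72.3 CPM (-0.23), and neither was called.

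*Tapbp* encodes tapasin, which bridges the transporter and the empty class I molecule. It was highest in state 3, at 384 CPM, and lowest in state 1, at 244.8 CPM (1.57-fold), over both pools. In macrophage-like cells it was at 307 CPM in the control and 315 CPM in the telmisartan pool (0.04, -0.00 to 0.08). The direction of that ratio is not firm, since it was -0.02 with thinned cells and -0.05 as a mean of log-transformed values per cell. *Tapbp* was called higher in state 1, from 217 to 269 CPM (0.31, 0.23 to 0.40), and in state 4, from 294 to 358 CPM (0.28, 0.19 to 0.37). Without scaling both calls were lost and both ratios turned, to -0.09 and -0.00. In dendritic-like cells it was at 410 CPM in the control and 367 CPM in the telmisartan pool (-0.16, -0.29 to -0.03), not called, with ratios of -0.26 in subset 1, 0.06 in the mature-like and 0.04 in the cDC1-like subset.

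*Erap1* encodes the aminopeptidase that trims peptides in the endoplasmic reticulum to the length class I molecules bind. It was the gene of the 10 with the largest ratio in size between the pools in macrophage-like cells, at 63.3 CPM in the control (60.8 to 65.9) and 40.4 CPM in the telmisartan pool (38.1 to 42.8), a ratio of -0.65 (-0.75 to -0.55). It was called lower in 5 of 6 states. The largest of these ratios in size was in state 2, from 31.9 to 18.3 CPM (-0.80), followed by state 5, from 80.5 to 47.1 CPM (-0.77), and state 3, from 71.1 to 45.4 CPM (-0.65). States 4 (-0.42) and 1 (-0.34) followed, and in state 6 the levels of 75.3 and 67.7 CPM (-0.15, -0.52 to 0.20) did not differ beyond counting error. At 1000 UMIs per cell, 5.12% of control cells (4.46 to 5.85%) and 2.67% of telmisartan cells (2.19 to 3.23%) held an *Erap1* UMI, a gene most cell types express, so that no class here gives a floor for the share. Over states its lowest level was in state 2, at 23.5 CPM over both pools, and its highest in state 6, at 73.1 CPM (3.12-fold), not beyond counting error above states 3 and 5 at 66.4 and 65.8 CPM. In dendritic-like cells it was at 61.98 CPM in the control and 55.7 CPM in the telmisartan pool (-0.15, -0.50 to 0.19), a difference not detectable at 184 and 117 UMIs, and its levels in the 3 subsets, 57.2, 64.4 and 64.3 CPM, had overlapping intervals.

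*B2m* encodes beta-2 microglobulin, the light chain shared by all class I molecules. Its level ran from 4009 CPM in state 1 to 6147 CPM in state 2 over both pools, the narrowest range of the 10 genes at 1.53-fold, and the states had the same order in either pool. In macrophage-like cells it was at 4690.3 CPM in the control and 5096 CPM in the telmisartan pool (0.12, 0.11 to 0.13). That ratio was positive in all 6 states, from 0.05 in state 5 to 0.22 in state 1, and under the limit for a call in each. Without scaling to total UMIs it was -0.29 over the class and between -0.18 and -0.06 in 5 states, with 0.12 in state 2. In dendritic-like cells it was at 5102 and 5329 CPM (0.06, 0.03 to 0.10). The mature-like subset had 6981 CPM over both pools, subset 1 had 5209 CPM, and the cDC1-like subset 4008 CPM, a level near that of macrophage state 1.

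**Figure D3:**
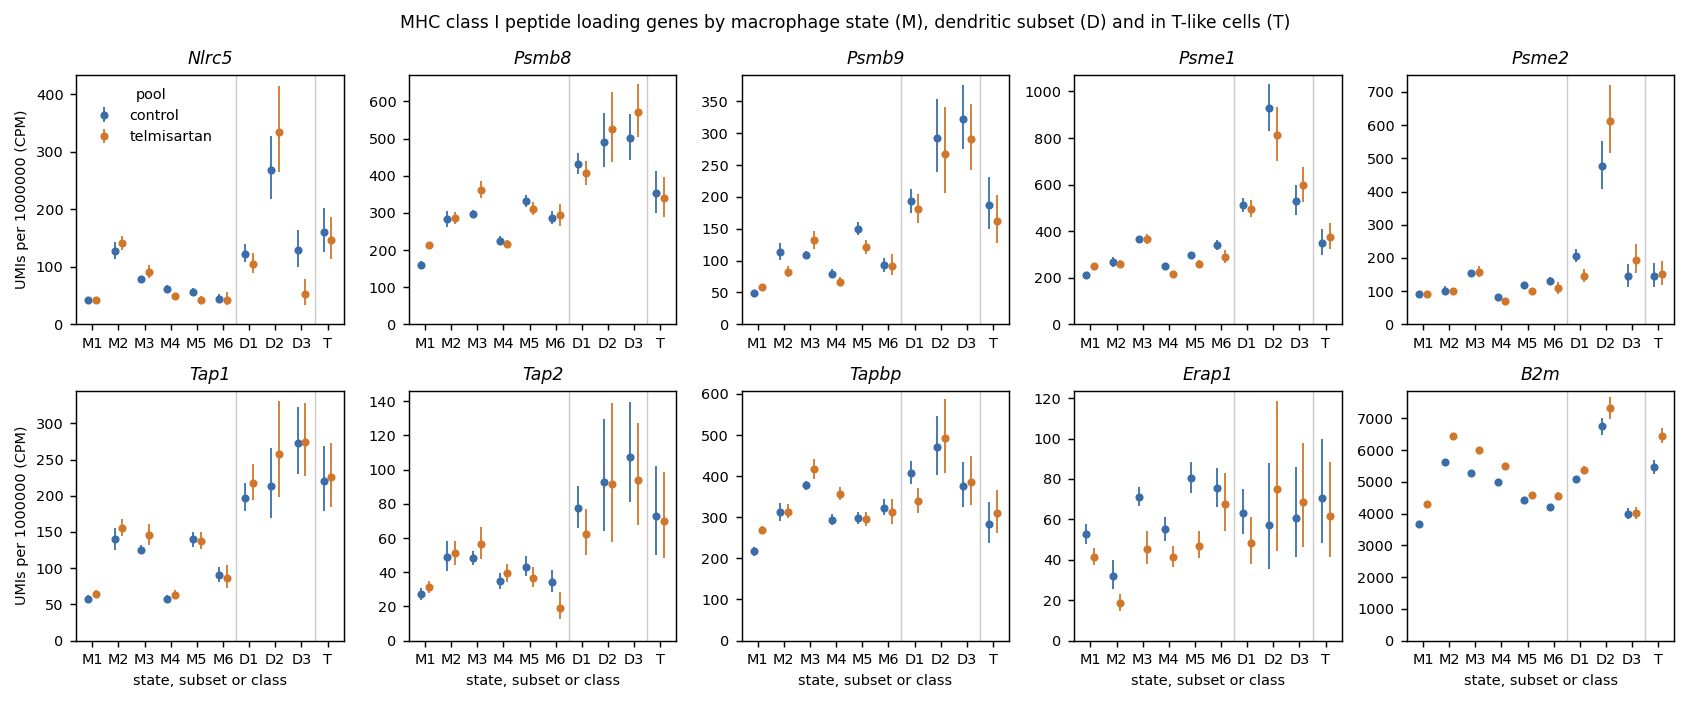
Level of each of the 10 genes in CPM by pool in macrophage states (M1 to M6), dendritic subsets (D1 to D3) and T-like cells (T), with 95% Poisson intervals as bars and a separate axis for each gene. Over both pools the mature-like subset D2 reaches 294 CPM of *Nlrc5* and 529.9 CPM of *Psme2*, and state M2 has the lowest *Erap1* level, 23.5 CPM.

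Set beside all genes of the same cells, the counts within states were these. In state 1, where 19.8% of genes were called higher and 9.71% lower, 2 of the 10 (*Psmb8* and *Tapbp*) were called higher and 1 (*Erap1*) lower, and the median was 0.22 where that over all genes was 0.06. State 3, where 8.10% of genes were called higher and 10.04% lower, had *Psmb8* and *Psmb9* called higher and *Erap1* lower, with a median of 0.20 where that over all genes was -0.05. In states 1 and 3, 8 of the 10 ratios were above 0, which was the highest count of any state. State 2 had 0 called higher (background 10.7%) and *Psmb9* and *Erap1* called lower (13.1%). State 4 had *Tapbp* called higher (10.2%) and *Nlrc5*, *Psme2* and *Erap1* lower (16.3%). In state 5, 0 were called higher (8.14%) and *Nlrc5*, *Psmb9* and *Erap1* lower (11.2%), and 9 of the 10 ratios were below 0, with a median of -0.22. State 6 had 0 called higher (9.08%) and *Tap2* lower (9.51%). Without scaling 0 of the 10 were called higher in each state, and those called lower numbered 3, 2, 1, 6, 7 and 5 in states 1 to 6, where 21.2% (state 2) to 55.3% (state 1) of all genes were called lower. That the states differ from each other in these counts was not tested.

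In dendritic-like cells 0 of the 10 genes were called higher, where 9.95% of 5891 genes were, and 0 lower, where 9.22% were. The median over the 10 genes was -0.11, where that over all genes was -0.02, and without scaling to total UMIs these medians were -0.30 and -0.21. Single ratios were less firm than that: *Psmb8* (-0.18), *Tap1* (-0.05) and *B2m* (-0.13) turned negative without scaling, and in thinned cells *Psmb9* (0.21), *Tapbp* (0.13) and *Psme2* (0.04) turned positive and *Tap1* (-0.09) negative. By subset, 0 of 10 were called higher (11.8% of all genes) and *Psme2* lower (11.2%) in subset 1. In the mature-like subset *Psme2* was called higher (14.3%) and 0 of the 8 genes with 100 UMIs lower (9.86%), and in the cDC1-like subset 0 of 7 were called higher (10.5%) or lower (8.69%). Without scaling 8 of 10 were called lower in subset 1 (41.1% of all genes), *Psme1* lower in the mature-like subset (30.7%), and *Psmb8*, *Psme1* and *Psme2* higher in the cDC1-like subset (27.6%). The 11 macrophage markers, all 11 detected in both pools, together stood at 1964 CPM in the control and 1589 CPM in the telmisartan dendritic-like cells, with *C1qb* the most abundant in the control and *Cd86* in the telmisartan pool, and *C1qa* at 94.3 and 56.6 CPM (-0.74). The 6 monocyte markers stood at 514 and 798 CPM in the same cells, and the 9 dendritic markers at 3699 and 2941 CPM. The part of these lists in the ratios was not tested.

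In T-like cells 8 of the 10 genes had 100 UMIs, and 0 were called higher, where 15.03% of 1663 genes were, or lower, where 11.4% were. Their ratios lay between -0.21 for *Psmb9* and 0.24 for *B2m*, the latter from 5467 to 6453 CPM (0.16 to 0.32). Without scaling all 8 were called lower, as were 63.3% of all genes. The 11 macrophage markers stood at 3439.5 CPM in the control and 2754 CPM in the telmisartan T-like cells. *Apoe*, the most abundant of them, did not fall, with 385 of 453259 control and 469 of 470176 telmisartan UMIs. The 6 monocyte markers stood at 1600 and 1921 CPM. *Lyz2*, which is in neither list, fell from 2804 to 1869.5 CPM between the pools. The part of these markers in the levels was not tested. The T-like cells join 2 clusters, of 51 control and 93 telmisartan cells and of 22 and 20 cells, so their make-up differs between the pools, and its part in the ratios was not tested either. In the 46 control and 24 telmisartan neutrophil-like cells *B2m* alone had 100 UMIs, with 248 and 245 UMIs, 2771 and 5183 CPM (0.90, 0.64 to 1.16), past the limit for a call, where 26.2% of 191 genes were called higher and 16.2% lower. The other 9 genes had between 2 and 26 UMIs in a pool, too few to compare.

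The other genes of class I presentation were read from 8 lists, each to be set beside the same background: 13.5% of all genes called higher and 15.4% lower in macrophage-like cells, 9.95% and 9.22% in dendritic-like cells, and medians of -0.05 and -0.02. The heavy chains, which form the body of the class I molecule, were called higher for 5 of 11 measured genes in macrophage-like cells (background 13.5%) and lower for 1 (15.4%), with a median of 0.25. Without scaling to total UMIs 2 were called higher and 3 lower, 3 of 11 were above 0, and the median turned to -0.16. The largest rises were *H2-Q6*, from 67.1 to 143 CPM (1.09), *H2-Q7*, from 107 to 185 CPM (0.80), and *H2-Q4* (0.50), and *Cd1d1* fell (-0.42). The classical heavy chain genes *H2-K1*, at 1320.3 and 1456 CPM (0.14), and *H2-D1*, at 2551 and 2868 CPM (0.17), were not called, and both ratios were negative without scaling (-0.27 and -0.24). In dendritic-like cells 3 of 9 heavy chains were called higher (background 9.95%) and 0 lower (9.22%), namely *H2-Q6* (0.57), *H2-T22* (0.46) and *H2-Q7* (0.28), with a median of 0.24. Without scaling 1 of 9 was called and the median was 0.05, and with 90% of tag reads on 1 tag *H2-K1* (-0.02) and *H2-D1* (-0.00) turned negative. In the cDC1-like subset 1 of 5 heavy chains was above 0 and 0 were called, with a median of -0.24. In T-like cells *H2-Q6* (1.01), *H2-Q7* (0.62) and *H2-K1* (0.48) were called higher among 7 measured, where 15.03% of all genes were, and without scaling these ratios were 0.44, 0.05 and -0.10, of which the first was called. The H2-Q and H2-T genes are near copies of each other, so a read may be counted for the wrong copy, and their separate levels are uncertain.

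The chaperones that fold class I molecules in the endoplasmic reticulum were below 0 for 9 of 9 genes in macrophage-like cells. Of these 6 were called lower, where 15.4% of all genes were, with a median of -0.30 where that over all genes was -0.05, the largest falls being *Pdia3* (-0.36), *Pdia6* (-0.35) and *Calr*, which encodes calreticulin (-0.33), and 0 were called higher. With both pools weighted to the same states 0 of 9 were called and the median was -0.23. In dendritic-like cells *Ganab* (-0.44) and *Pdia6* (-0.33) were called lower (background 9.22%) and the median was -0.07. With 90% of tag reads on 1 tag 4 of 9 were called lower and the median was -0.30. In cells thinned to 1000 UMIs 0 were called and the median was -0.004. By subset, *Ganab* (-0.54), *Pdia6* (-0.40), *Uggt1* (-0.34) and *Pdia3* (-0.28) were called lower among 9 in subset 1 (11.2%). In the cDC1-like subset 6 of 6 were above 0, with a median of 0.26, and *Pdia3* (0.48) and *Hspa5* (0.41) were called higher (10.5%). That the subsets differ was not tested. Among 4 immunoproteasome partners the assembly factor *Pomp* was called lower in macrophage-like cells (-0.36), and the median was -0.11 in either class. *Psmb10* was at 119.5 and 112 CPM (-0.10, and 0.07 weighted to the same states) there and was called lower in dendritic-like cells, from 123 to 97.1 CPM (-0.34). Of 14 subunit genes of the constitutive core, *Psma3* (-0.31) and *Psma1* (-0.28) were called lower in macrophage-like and *Psma1* (-0.38) in dendritic-like cells, and 0 were called higher in either class, with medians of -0.12 and 0.01. With both pools weighted to the same states 0 of the 14 and 0 of the 4 partners were called in macrophage-like cells, and the median of the 14 was -0.01. In T-like cells 4 of 6 chaperones (median -0.40) and 3 of 10 core subunits (median -0.08) were called lower (background 11.4%) and 0 higher. Of 2 partners measured there 1 was called higher (15.03%). These T-like calls were made with scaling, without which 1.56% of all genes there were called higher and 63.3% lower.

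Peptidases of the cytosol and endosome were called in both directions in macrophage-like cells only with scaling to total UMIs. Of 7 measured, *Thop1* (0.50) and *Npepps* (0.42) were called higher and *Lap3* (-0.65) and *Lnpep* (-0.43) lower, where 0 were called higher and 5 lower without scaling. With both pools weighted to the same states 1 was called higher and 2 lower. In dendritic-like cells *Dpp3* (-0.54) was called lower among 6, and the medians were -0.12 and -0.16. Of 9 genes of class I export and endocytosis, *Sec24a*, a coat protein gene of vesicles that leave the endoplasmic reticulum, was called higher in both classes (0.46 and 0.50), and *Bcap29* (-0.40) and *Sec61b* (-0.34) were called lower in macrophage-like cells, with medians of -0.08 and -0.03. Without scaling 0 of 9 were called higher in either class, and with both pools weighted to the same states 0 were called lower in macrophage-like cells.

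Regulators of class I transcription also went both ways, with medians of -0.00 in macrophage-like and 0.12 in dendritic-like cells, which were -0.41 and -0.07 without scaling. In macrophage-like cells 5 of 16 were called higher (background 13.5%), the largest being *Nfkb1* (0.60), *Irf1*, from 158 to 238 CPM (0.59), and *Rela* (0.37, and -0.04 without scaling). Without scaling 0 of the 16 were called higher, and 0 of 13 in dendritic-like cells. Among those called lower were *Ciita* (-1.07), the class II counterpart of *Nlrc5*, and *Irf2* (-0.29). In dendritic-like cells *Irf8* (0.42) and *Irf1* (0.32) were called higher (background 9.95%) and *Ciita* (-0.35) lower (9.22%) among 13, and the *Irf1* ratio there was -0.04 when only cells with 90% of their tag reads on 1 tag were used. In the cDC1-like subset *Irf1* (-0.75), *Nfkb1* (-0.55), *Irf2* (-0.52) and *Ciita* (-0.39) were called lower among 8 (background 8.69%), and without scaling *Irf1* alone of these 4 was still called lower. There *Irf8* (0.56) was called higher (10.5%), and the median was -0.43. That this subset differs from the class was not tested. In T-like cells *Irf1* was called higher (1.04), and without scaling its ratio of 0.47 was not called. Of 11 genes of the interferon gamma response and its signaling 5 were called lower in macrophage-like cells (background 15.4%) and 0 higher (13.5%), led by *Cxcl9*, from 875 to 402 CPM (-1.12), *Gbp2* (-0.52) and *Gbp5* (-0.45). The list holds the receptor genes *Ifngr1* and *Ifngr2* and their kinase genes *Jak1* and *Jak2* beside response genes, so its counts and medians mix both. In macrophage-like cells the ratios of these receptor and kinase genes lay between -0.01 and 0.19, and none was called. With both pools weighted to the same states the *Cxcl9* ratio was -0.26 and the *Gbp2* ratio 0.04, while 1 of the 11 was called lower and 2 higher, and the list's median turned from -0.06 to 0.04. In dendritic-like cells *Cxcl10* was called higher (1.22) and *Cxcl9* (-0.94) and *Gbp2* (-0.35) lower. In the cDC1-like subset *Cxcl9* (-1.57), *Cd274* (-0.77), *Cxcl10* (-0.75), the receptor gene *Ifngr1* (-0.58) and *Gbp2* (-0.45) were called lower among 7 (background 8.69%) and 0 higher, so *Cxcl10* there was opposite to the class. Without scaling *Cxcl10* (-0.56) and *Gbp2* (-0.25) were not called, and the difference from the class was not tested. In T-like cells 3 of 4 measured genes of this list were called higher (background 15.03%) and 0 lower, with a median of 0.55. These ratios depend on the scaling: the median over all genes in T-like cells was 0.02 with it and -0.55 without it. Without scaling 1.56% of all genes there were called higher.

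Over 22 profiles, which are the states, subsets and other classes in each pool, levels of most of the 10 genes were high and low in the same profiles, least so for *Erap1*. The median Pearson r over pairs of the 10 genes was 0.61, with 0.94 for *Psmb8* and *Psme1* and 0.88 for *Psmb9* and *Tap1*. *Erap1* had a mean r of 0.14 with the other 9. Outside the 10 genes, and among 8641 with at least 500 UMIs, the highest mean r to them was that of *Tapbpl* (0.70), which encodes the tapasin-like editor of class I peptides, and among the next highest were *Arhgap30* (0.67), *Gatad2b* (0.67), *Ahcyl2* (0.66), *Pank2* (0.66), *Rspry1* (0.66) and *Psme2b* (0.65). *H2-K1* had a mean r of 0.56, *Irf1* of 0.31 and *Psmb10* of 0.12, which was 0.65 over the 12 profiles of macrophage states alone, a set chosen after seeing the data. The profiles share 1 library and its free RNA, and the ranking changes with them: without the neutrophil-like profiles *Tapbpl* and *Arhgap30* were still among the first 8, and *Gatad2b*, *Ahcyl2*, *Pank2*, *Rspry1* and *Psme2b* were not.

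Of the 10 genes 5 lie in the MHC region of chromosome 17 (GRCm38), where *Psmb9*, *Tap1*, *Psmb8* and *Tap2* follow each other from 34181987 to 34216321. *Psmb9* (34181987 to 34187764) lies on the minus strand and *Tap1* (34187553 to 34197225) on the plus strand, and their annotated genes overlap by 212 bases at their 5′ ends. RefSeq places the start of *Psmb9* at 34187330 and that of *Tap1* at 34187556, with 225 bases between them. *Psmb8* (34197721 to 34201454), *Tap2* (34203527 to 34216321) and, further off, *Tapbp* (33915899 to 33929292) lie on the plus strand. *Psme1* (55578123 to 55581529, plus strand) and *Psme2* (55587441 to 55591113, minus strand) lie close together on chromosome 14, with *Emc9* between them. *Nlrc5* lies on chromosome 8 (94434356 to 94527272), *Erap1* on chromosome 13 (74639568 to 74693201) and *B2m* on chromosome 2 (122147686 to 122153083), all on the plus strand. Several genes overlap others: *Tapbp* shares 3422 bases with *Zbtb22* on the same strand, *Erap1* shares 834 bases with *Cast* on the opposite strand, and *B2m* lies within *Patl2* on the opposite strand. Over the kept cells *Zbtb22* had 735 UMIs where *Tapbp* had 22995, *Cast* 11987 where *Erap1* had 3936, and *Patl2* 849 where *B2m* had 356403, and reads in shared bases may have been lost or given to either gene.

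**Figure D4:**
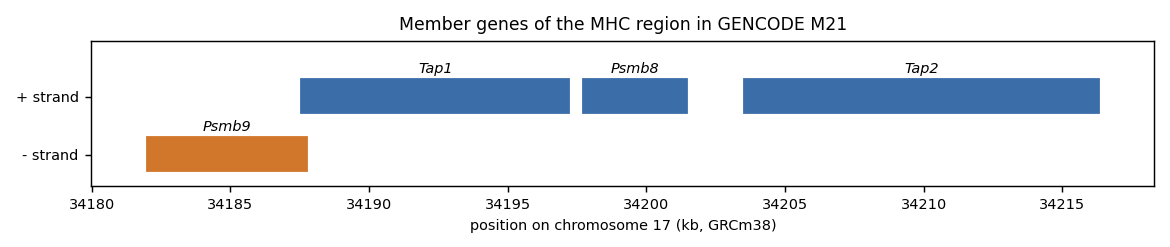
Map of *Psmb9*, *Tap1*, *Psmb8* and *Tap2* on chromosome 17 in kilobases of GRCm38, with each gene drawn from its annotated start to its end on its strand. *Psmb9* and *Tap1* point away from each other and overlap by 212 bases.

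RefSeq promoters, 250 bases before to 50 after the gene's start on GRCm38.p6, were at hand for 8 of the 10 genes, not for *Nlrc5* and *Tap2*. They were searched on both strands for GAAANNGAA, the core of the interferon-stimulated response element, and TTCNNNGAA, the gamma-activated site, which reads the same way on both strands in its fixed letters. The core was found in *B2m*, *Erap1* and *Psme1*, 3 of 8 genes, where 8.56% of 32851 promoters hold it. The gamma-activated site was found in *Psmb8*, 1 of 8 genes, where 8.30% of promoters hold it. A gene was counted when any of its promoters matched, while the background shares are of single promoters, so the units differ. The stretches are printed because *B2m* and *Erap1* had scaled ratios of opposite sign in every state, and both hold the core, with 2 overlapping matches in *Erap1*. Capitals mark the matches, which are on the opposite strand in *Erap1* and *Psme1*, and all are written on the plus strand. The stretch of *B2m* is chr2:122147538-122147567, before the gene and in an intron of *Patl2*. Those of *Erap1* (chr13:74639834-74639863), *Psme1* (chr14:55578494-55578523) and *Psmb8* (chr17:34198088-34198117) overlap annotated exons of the same genes. A match is a string of letters and shows no binding.
*B2m*: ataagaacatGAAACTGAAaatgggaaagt
*Erap1*: ccggtccaccTTCACTTTCACTTTCggtcc
*Psme1*: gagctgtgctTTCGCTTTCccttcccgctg
*Psmb8*: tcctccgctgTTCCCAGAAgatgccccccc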

How the data were processed

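The deposited counts are unique molecular identifiers per cell and gene that the authors made with the BD Rhapsody pipeline 1.11 (GRCm38, GENCODE M19, introns included), and the deposited tag table holds Sample Tag reads per cell. Cells needed at least 10 tag reads with 75% on 1 tag, 150 to 5000 genes and at most 20% mitochondrial UMIs, and the 942 cells with the highest Scrublet scores (scanpy 1.11.5) were removed as doublets. Scrublet's own threshold called 0, and their share, 9.51%, was predicted from the 8.67% of cells split between tags. Clusters came from Seurat 5.3.0 (2000 variable genes, 30 components, resolution 0.5, then 0.4 for states and 0.1 for dendritic subsets, the last chosen after the clusters were seen). UMIs were summed by class and pool, with exact Poisson intervals for levels and exact conditional binomial intervals for ratios. The ratio intervals were tried only on simulated Poisson counts, the model they assume. Those counts hold no spread between cells or mice, so that trial cannot show how the intervals do under such spread. Positions are from GENCODE M21. Named are the 10 genes, at most 3 rises and 3 falls per list and class, *H2-K1*, *H2-D1*, *Psmb10* and *Irf1*, genes among the 8 of highest mean r, and markers. *Lyz2*, genes that lead a state, genes called in dendritic subsets 1 and 3 and overlapping genes were named after values were seen. The members and lists were chosen with earlier results of these data known. Other scalings, filters and edgeR 4.0.16 TMM factors were tried as alternatives.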

Additional observations from a re-analysis of the deposited data

Results flagged for a closer look

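*Psmb9* had ratios of opposite sign, both past the limit for a call, in macrophage states 3 and 2. It was higher in the telmisartan pool in state 3 (0.27) and lower in state 2 (-0.46), a gap of 0.73 on the log2 scale between states that are both led by interferon response genes. As UMIs per cell without scaling, chosen after seeing the data, the ratio in state 3 was 0.02 and not called, and that in state 2 was -0.54. State 2 holds cells of lower depth and state 3 mostly control cells, and the difference between the states was not tested.

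*Psme2* had opposite signs in dendritic subsets 2 and 1, at 0.36 in the mature-like subset and -0.50 in subset 1, a gap of 0.86. The values rest on 174 control and 147 telmisartan UMIs in the mature-like subset and on 432 and 208 UMIs in subset 1. In subset 3 the ratio was 0.43 (-0.04 to 0.90), at 145 and 195 CPM with 74 and 85 UMIs, and was not called. Without scaling the ratios of subsets 1, 2 and 3 were -0.78, 0.14 and 0.62, and that of subset 2 was not called. This difference was not tested either.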

How the results depend on the processing

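Under the alternative settings, 68 summary values stayed near the reported value and 13 did not. Near means within its counting interval, or within 1.5 times it for counts and ranges. For medians over the 10 genes it means between the median lower and the median upper limit of the genes' intervals, which is no interval of the median itself. For single genes and the likeness ranking 275 stayed, 119 did not, and 2 were called ratios that turned their sign. Ratios that were not called turned more often, such as *B2m* without scaling. The 2 are *Tapbp* without scaling within states, chosen after seeing the data, at -0.0858 in state 1 and -0.00241 in state 4. Over the macrophage-like class neither called ratio of the 10 genes turned, while called genes of the lists did, such as *Rela*. In macrophage-like cells the 2 calls (*Psme2* and *Erap1*) became 0 as a mean of log-transformed UMIs per 10000 in each cell, 10 without scaling, and 1 with both pools weighted to the same states, at a ratio of 1.5, and, chosen after seeing the data, without state 3. The median over the 10 genes became -0.44 without scaling and, also chosen after seeing the data, -0.17 without state 2. In dendritic-like cells the 0 calls became 3 (*Nlrc5*, *Psme2* and *Tapbp* lower) with 90% of tag reads on 1 tag, which left 227 control and 158 telmisartan cells, and 6 without scaling, which took the median to -0.30. The median log2 range over macrophage states, 0.90, became 0.53 at resolution 0.3 with 4 states and 1.80 at resolution 0.8 with 11 states. The immunoproteasome ratio between pools in macrophage-like cells, -0.06, was -0.22 from *Psmb9* over *Psmb6* alone. The likeness ranking without the neutrophil-like profiles was also chosen after seeing the data. Background calls in macrophage-like cells, 1494 higher and 1710 lower, became 112 and 151 with log-transformed values, 336 and 8099 without scaling, and 523 and 247 at a ratio of 1.5. The share of calls that are higher, 46.6%, was then 42.6%, 3.98% and 67.9%. In dendritic-like cells 586 higher and 543 lower became 96 and 58, 254 and 1689, and 212 and 191, and 288 and 198 in thinned cells. Calls on log-transformed values use no interval. Beyond the stricter ratio, more states and dropped cells, the cause was not tested. Leaving out replicates was not possible with 1 pool per group, and in neutrophil-like cells depth limits every gene but *B2m*.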

Other observations

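Cells over the mitochondrial limit, 2623 in the control and 4433 in the telmisartan pool, belong to no comparison above. Per 1000000 UMIs outside the mitochondrial genes, *Nlrc5* was at 132 in the control and 101 in the telmisartan cells (-0.39, -0.63 to -0.15), *Psmb9* at 144 and 112 (-0.37), *Psme2* at 104 and 82.1 (-0.34) and *Tap2* at 71.6 and 54.6 (-0.39). *Tap1* was at 134 and 110.02 (-0.29), *Psmb8* at 362 and 328 (-0.14), *Psme1* at 311 and 313 (0.01) and *Tapbp* at 416 and 437 (0.07). *Erap1* was at 38.8 and 34.1 (-0.19, -0.61 to 0.25), from 78 and 115 UMIs, and *B2m* at 5464 and 5020.1 (-0.12, -0.16 to -0.09). What the cells are was not tested.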
